A study of Mus musculus with 2 samples.

Results

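The 10 genes described here encode selenoproteins, proteins that carry selenium in their chain, and were followed in mouse T cells with and without exposure to RPE, the retinal pigment epithelium that underlies the photoreceptors. They are Selenow, Selenof, Selenok, Selenos, Selenot, Selenoh, Gpx1, Gpx4, Txnrd1 and Sephs2, taken by symbol from the annotation of a 1-colour Affymetrix array, 10 of the 18193 genes that the array names on their own. All 23 probe sets (groups of short probes for 1 transcript) annotated to exactly 1 of them were used. RPE-exposed T cells were set against control T cells, with 1 array each. Both came from male mice 6 weeks old on a C57 BL/6 background, with no mutant allele or added agent named. The title of the control names CD4 T cells, whereas the exposed sample was named T cells in its title and source and cultured RPE in its tissue field, and the labels give neither the length of exposure nor whether animals were pooled. The comparison asks which T-cell transcripts differ after exposure to this epithelium. With no replicate, every value stands for 1 array, no spread between samples is known, and precision is limited by there being only 1 array a group.

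Selenoproteins hold selenocysteine, an amino acid inserted at a UGA codon that would otherwise stop translation. Its insertion needs a stem-loop in the transcript, a dedicated transfer RNA and selenophosphate. Sephs2, itself a selenoprotein, makes selenophosphate from selenide. Most selenoproteins are oxidoreductases with the selenocysteine in the active site, such as glutathione peroxidases and thioredoxin reductases, and several sit in the endoplasmic reticulum (ER). When selenium is short, the transcripts of Gpx1, Selenow and Selenoh are known in rodents to fall more readily than that of Gpx4. In mice, T cells that cannot make selenoproteins respond poorly to stimulation of the T-cell receptor, T cells without Gpx4 die by lipid peroxidation, and Selenok takes part in the calcium flux that follows receptor engagement.

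The cell types of the samples were checked on marker lists. Of 10 T-cell markers, 8 were measured, all above the floor on both arrays, with summed signals of 12423.6 in RPE-exposed and 11792.4 in control T cells and a median log2 difference of 0.01. Cd4, among these markers, had 271.1 in RPE-exposed and 287 in control T cells (-0.08) on its brightest probe set. Its 2 probe sets disagreed in sign, with a mean of 0.26 ± 0.48 (SD), so that the dimmer one was higher in RPE-exposed T cells. Genes of CD8 T cells, added after the data were seen because the control is titled as CD4 cells, were bright on both arrays. Cd8a had 694.6 in RPE-exposed and 568.8 in control T cells (0.29, 4 of 5 probe sets positive) and Cd8b1 had 983.9 in RPE-exposed and 706.4 in control T cells (0.48, above the middle 95% of genes of like level). The part of CD8 cells in the results below was not tested. The floor is the array's median signal, 16 on the exposed and 15.9 on the control array. Of 13 RPE markers, 11 were under the floor on both arrays, among them the visual-cycle isomerase gene Rpe65 at 2.3 in RPE-exposed and 5.3 in control T cells. The other 2, Pmel and Mitf, were above it on 1 array each, at no more than 18.3. B-cell markers were lower in the exposed sample, with all 9 measured genes negative, a median of -0.54, and sums of 1400.9 in RPE-exposed and 2162.4 in control T cells. Of these 9, 4 were at least 1.5-fold lower, as were 3.84% of all genes compared. Below the middle 95% of genes of like level lay 5 of the 9, against 2.46% of all genes compared. Of 11 measured macrophage and dendritic-cell markers 8 were lower, with a median of -0.43 and sums of 829.7 in RPE-exposed and 1048.4 in control T cells. Several of the latter lay near the floor, such as Cd14 (16.1 in RPE-exposed and 21.7 in control T cells) and Itgax (17 in RPE-exposed and 19.4 in control). Cst3 made up most of their sums, at 560.5 in RPE-exposed and 675.3 in control T cells. No marker of either list was at 0 on both arrays, but neither was Rpe65, so a signal above 0 does not show that such cells were present. The part of B cells, macrophages and dendritic cells in the results below was not tested. In a bulk sample fewer cells of a type and less RNA per cell cannot be told apart. Of 5 measured erythroid genes, 4 were under the floor on both arrays and Klf1 on the exposed array, at 10.2 against 18.8 in control T cells.

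All 10 selenoprotein genes were above the floor on both arrays, and all 10 had a higher signal in RPE-exposed T cells. Selenow was at least 2-fold higher, Gpx1 and Selenoh at least 1.5-fold higher, and the other 7 lay between 1.02-fold and 1.41-fold higher. The values are log2 differences, RPE-exposed minus control, of the brightest probe set of each gene. The median over the 10 genes was 0.26, against -0.01 over the 11021 genes compared, which are those whose signal passed the floor on either array. Among those genes 48.2% were higher in the exposed sample, 3.15% were at least 1.5-fold higher (3 of the 10), and 0.436% at least 2-fold higher (1 of the 10). None of the 10 was lower by any size, where 5682 of the 11021 genes compared were. At least 1.5-fold lower were 3.84% of all genes, and at least 2-fold lower 0.626%. Without Selenow, Gpx1 and Selenoh the remaining 7 had a median of 0.19. The genes were picked with the results of this pair of arrays known, so these counts describe them and support nothing further.

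**Figure D1:**
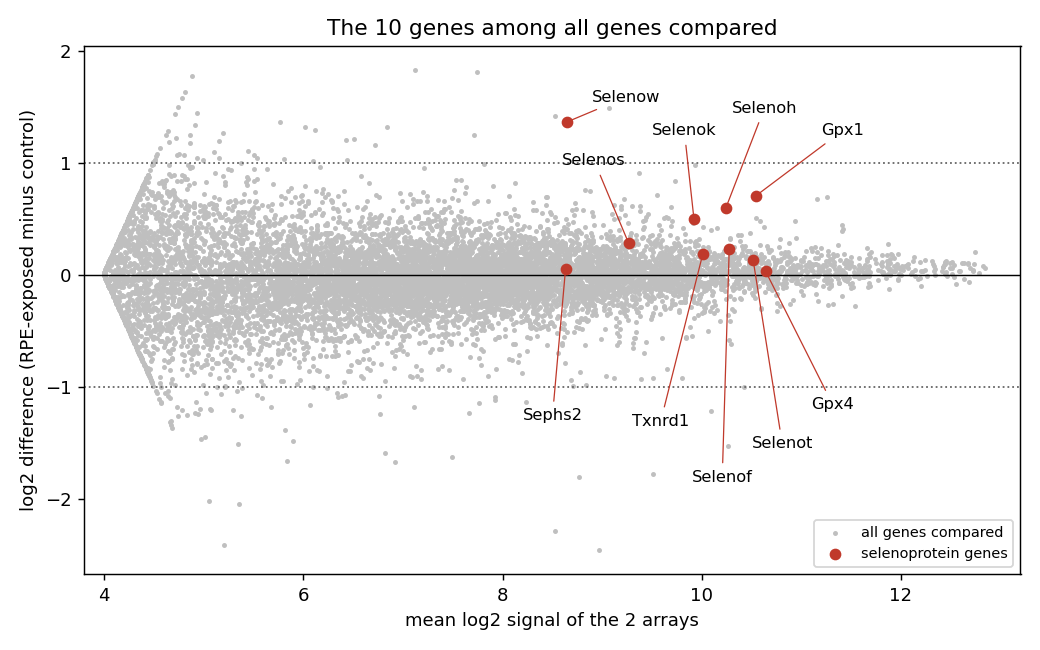
Log2 difference (RPE-exposed minus control, y axis) against the mean log2 signal of both arrays (x axis) for all 11021 genes compared, with the 10 selenoprotein genes in red and dotted lines at 2-fold. Selenow stands above the upper 2-fold line, and all 10 red points lie above 0.

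Each difference was also set beside the like-level range, which holds the middle 95% of differences when the genes compared are divided into 20 bins by mean level. Selenow, Gpx1, Selenoh and Selenok lay above their ranges and the other 6 within theirs, where 2.45% of all genes compared lay above and 2.46% below. Ordered by difference the genes were Selenow (1.37), Gpx1 (0.71), Selenoh (0.60), Selenok (0.50), Selenos (0.29), Selenof (0.23), Txnrd1 (0.19), Selenot (0.14), Sephs2 (0.05) and Gpx4 (0.03). Selenow was 11th from the top of the 11021 genes, Gpx1 186th and Selenoh 328th, whereas Gpx4 was 4672nd. As a guide to the error within the array pair, probe sets of 1 gene differed among themselves with a pooled SD of 0.20 on the log2 scale over the 1263 genes whose brightest probe set averaged 500 or more, and 0.24 over the 2500 genes at 100 to 500. Selenow stood above Gpx1, the next in the order, by more than that SD. The later steps in the order were smaller than 0.20, except the step between Selenok and Selenos, which was about as large.

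The stretches before the transcription starts of the 3 genes with the largest differences, and of Sephs2 as the gene with the smallest difference among those with 1 listed start, are shown to let their composition be compared. Each is the 250 bases upstream of the start, 5′ to 3′ on the gene's strand, from RefSeq (GRCm38.p6), and all 10 genes were matched by symbol. Capitals mark the GC box (GGGCGG), the CCAAT box (CCAAT), the TATA box (TATAAA) and the core of the antioxidant response element (TGACNNNGC), each searched on both strands.
Selenow, chr7:15922372-15922621, minus strand: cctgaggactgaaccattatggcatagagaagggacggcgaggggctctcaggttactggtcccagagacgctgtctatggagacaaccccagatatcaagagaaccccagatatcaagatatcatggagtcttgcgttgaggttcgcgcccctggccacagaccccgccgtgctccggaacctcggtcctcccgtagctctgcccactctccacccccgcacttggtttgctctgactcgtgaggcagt
Gpx1, chr9:108338830-108339079, plus strand: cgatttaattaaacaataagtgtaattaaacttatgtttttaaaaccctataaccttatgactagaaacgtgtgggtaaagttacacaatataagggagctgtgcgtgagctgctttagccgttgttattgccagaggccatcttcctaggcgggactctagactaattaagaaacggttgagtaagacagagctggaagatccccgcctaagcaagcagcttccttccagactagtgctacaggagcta
Selenoh, chr2:84670709-84670958, minus strand: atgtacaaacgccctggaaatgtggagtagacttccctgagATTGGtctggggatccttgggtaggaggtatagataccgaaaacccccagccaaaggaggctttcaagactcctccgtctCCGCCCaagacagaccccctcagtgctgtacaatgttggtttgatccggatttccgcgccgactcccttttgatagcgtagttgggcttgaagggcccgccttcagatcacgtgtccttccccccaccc
Sephs2, chr7:127274060-127274309, minus strand: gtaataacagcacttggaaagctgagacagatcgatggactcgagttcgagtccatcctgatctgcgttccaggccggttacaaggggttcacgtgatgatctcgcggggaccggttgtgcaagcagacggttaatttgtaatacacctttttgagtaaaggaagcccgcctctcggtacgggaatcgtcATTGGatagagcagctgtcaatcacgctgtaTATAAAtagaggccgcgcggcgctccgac
None of the 4 motifs was found in these windows of Selenow and Gpx1. Selenoh held a GC box and a CCAAT box, and Sephs2 a CCAAT box and a TATA box that ends 24 bases before the start. Gpx1 was the poorest in G and C, at 42% of bases, against 58.4% in Selenow, 55.2% in Selenoh and 52% in Sephs2. Of all 32851 listed starts, 32.7% held the GC box, 33.8% the CCAAT box, 12.4% the TATA box and 10.2% the antioxidant core. Over all 15 listed starts of the 10 genes, the antioxidant core was found for Selenok (TGACTGGGC, where its last bases overlap a GC box) and for a start of Txnrd1 (GCTTTGTCA, on the opposite strand). A match of letters is a description and not a binding site.

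**Figure D2:**
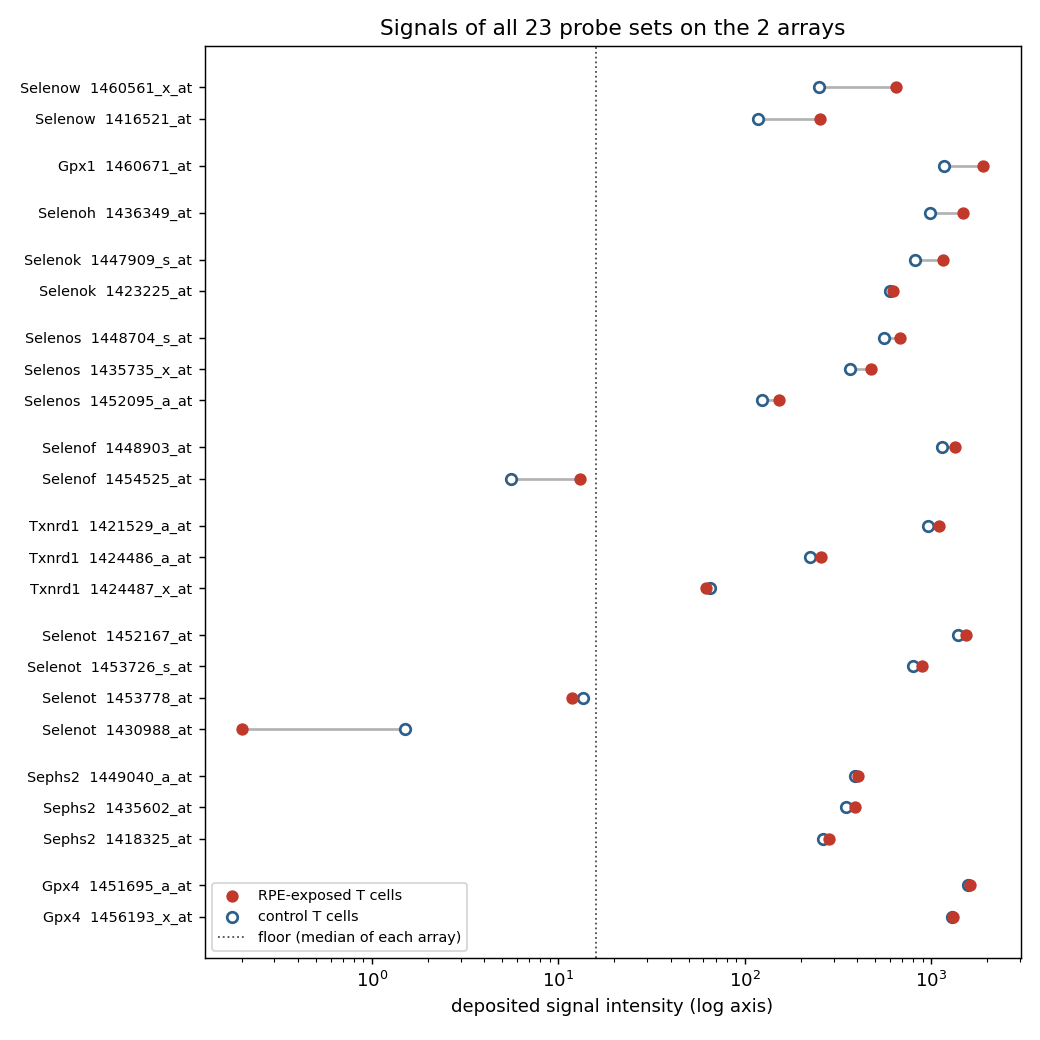
Deposited signal intensity on a log axis (x) for each of the 23 probe sets, grouped by gene from the largest to the smallest difference, with RPE-exposed T cells as filled and control T cells as open circles and the floor as a dotted line. The 3 probe sets left of the floor belong to Selenof and Selenot; of the 20 to its right, 19 have the filled circle further right, and the exception is a Txnrd1 probe set.

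Selenow, Selenoh, Selenof and Selenot share a thioredoxin-like fold with a selenocysteine in a redox motif. Selenow, a small cytosolic protein of this family, had signals of 646.3 in RPE-exposed and 250.2 in control T cells on probe set 1460561_x_at, 2.58-fold higher. Its second probe set, 1416521_at, gave 252.4 in RPE-exposed and 117.8 in control T cells, 2.14-fold higher. Both probe sets of Selenow thus passed 2-fold, with a mean log2 difference of 1.23 ± 0.19 (SD, 2 probe sets, which are not replicates), against a like-level range of -0.48 to 0.44. The name of the brighter probe set ends in x, which marks probes shared with other sequences, whereas that of the dimmer one does not. Selenow's difference was higher than those of all but 0.0907% of the genes compared.

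Selenoh, a nucleolar DNA-binding selenoprotein, had a signal of 1488.2 in RPE-exposed and 984.1 in control T cells on its only probe set. The difference of 0.60, or 1.51-fold, lay above the like-level range of -0.36 to 0.36 and only just past 1.5-fold. It was 0.57 after quantile normalization, under 1.5-fold. Selenof, an ER-resident partner of the glycoprotein-folding sensor UGGT, had 1343.4 in RPE-exposed and 1144.1 in control T cells, 1.17-fold higher, and its second probe set was under the floor on both arrays at 13.1 in RPE-exposed and 5.6 in control T cells. Selenot, a selenoprotein of the ER membrane, had 1534.5 in RPE-exposed and 1395.8 in control T cells on its brightest probe set and 891.7 in RPE-exposed and 796.4 in control T cells on the next. Those probe sets of Selenot gave 1.10-fold and 1.12-fold higher, and its other 2 were under the floor on both arrays. The differences of Selenow were thus larger than those of Selenof and Selenot, both of which stayed within their like-level ranges.

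Selenok and Selenos are single-pass proteins of the ER membrane, and both bind the Derlin proteins of ER-associated degradation. Selenok had 1152.9 in RPE-exposed and 816.1 in control T cells on probe set 1447909_s_at, 1.41-fold higher, but 621.1 in RPE-exposed and 602 in control T cells on 1423225_at, 1.03-fold higher. Its probe sets had the same sign and disagreed in size, with a mean of 0.27 ± 0.32 (SD, 2 probe sets), so that the place of Selenok above its like-level range rests on 1 probe set. All 3 probe sets of Selenos were higher in RPE-exposed T cells, at 679.2, 477.8 and 153.3, against 557.4, 368.8 and 123.4 in control T cells. They gave 1.22-fold, 1.30-fold and 1.24-fold higher, a mean of 0.32 ± 0.045 (SD, 3 probe sets), within the like-level range of -0.44 to 0.51. Selenos thus had a smaller top value than Selenok but closer probe sets. All 3 probe sets of Selenos and the brighter one of Selenok have names in x, s or a. Selenos therefore had no value when such probe sets were dropped.

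The glutathione peroxidases reduce peroxides with glutathione. Gpx1, the cytosolic enzyme for hydrogen peroxide, had a signal of 1908.4 in RPE-exposed and 1168.4 in control T cells, 1.63-fold higher (0.71, like-level range -0.19 to 0.30), on its only probe set. Gpx4, which reduces lipid hydroperoxides in membranes, had 1615.2 in RPE-exposed and 1578.3 in control T cells on 1 probe set and 1318.5 in RPE-exposed and 1299.6 in control T cells on the other. These are 1.02-fold and 1.01-fold higher, the smallest differences of the 10 genes, with a mean of 0.027 ± 0.0088 (SD, 2 probe sets). After quantile normalization the dimmer probe set of Gpx4 was -0.02. Gpx1 was therefore second and Gpx4 last in the order of the 10 genes, apart by more than the SD of 0.20 between probe sets of bright genes.

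Txnrd1, the cytosolic thioredoxin reductase, had 1101 in RPE-exposed and 966.5 in control T cells on its brightest probe set, 1.14-fold higher, and 258.2 in RPE-exposed and 224.4 in control T cells on the second, 1.15-fold higher. The third and dimmest gave 62.2 in RPE-exposed and 65.5 in control T cells, 1.05-fold lower, and was the only 1 of the 20 probe sets above the floor with a negative difference. Sephs2, the selenophosphate synthetase, had 403.8, 390.7 and 284.8 in RPE-exposed T cells, against 389.9, 350.6 and 264.6 in control T cells, between 1.04-fold and 1.11-fold higher. The median difference over the 20 probe sets was 0.20, and 19 of them were positive, where 48.4% of the 18217 1-gene probe sets that passed the floor on both arrays were. Of the 20, 4 were at least 1.5-fold higher (2.89% of all) and 2 at least 2-fold higher (0.412% of all).

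**Figure D3:**
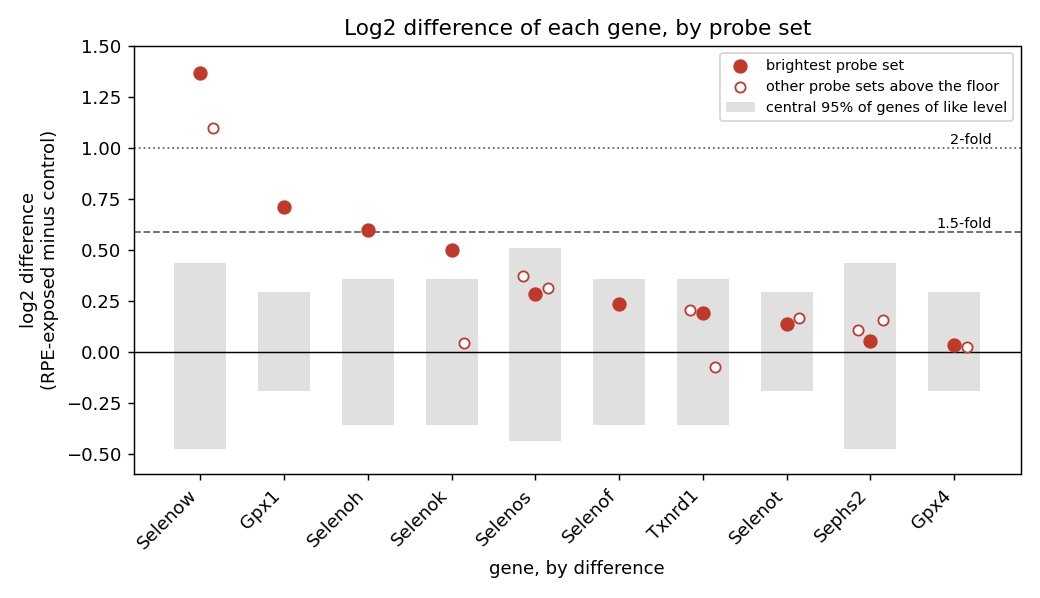
Log2 difference (RPE-exposed minus control, y axis) for each of the 10 genes (x axis, largest first), with the brightest probe set as a filled circle, its other probe sets above the floor as open circles, and the like-level range as a grey bar. Selenow, Gpx1, Selenoh and Selenok have their filled circle above the bar, and the open circle of Selenok lies inside it.

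The rest of the mouse selenoproteins were followed as a list of 14. Of these, 13 were on the array, 5 were under the floor on both arrays (Dio1, Gpx2, Gpx3, Selenom and Selenov), and Dio3 was not analysed here. Of the 8 compared, 6 were higher and 2 lower, with a median of 0.18. None was measured past 1.5-fold, although for Txnrd3 and Dio2 the fold is only a lower bound. Selenop, the secreted selenium carrier, had 833.5 in RPE-exposed and 582.6 in control T cells, 1.43-fold higher (0.52, like-level range -0.44 to 0.51), on 1 probe set. Selenon, an ER protein of calcium handling, had 30.7 in RPE-exposed and 22.5 in control T cells (0.45, within a range of -1.09 to 1.08). Smaller positive differences were those of Selenoi, a phospholipid-synthesis enzyme (269.1 in RPE-exposed and 233.2 in control T cells, 0.21), and of Msrb1, a methionine sulfoxide reductase (298.4 in RPE-exposed and 266.8 in control T cells, 0.16). The mitochondrial reductase Txnrd2 had 107.5 in RPE-exposed and 94.3 in control T cells (0.19), but its probe sets disagreed in sign. Selenoo, a mitochondrial pseudokinase, was lower at 54.2 in RPE-exposed and 63.8 in control T cells (-0.24). The brightest probe set of Txnrd3 was under the floor in RPE-exposed T cells (15.2) and 23.5 in control T cells, at least 1.47-fold lower. Another, above the floor on both arrays, gave 16.9 in RPE-exposed and 21.8 in control T cells, 1.29-fold lower. Dio2 was above the floor in RPE-exposed T cells only, at 16.7 against 7 in control T cells, so that its difference of 0.07 is a lower bound. The list's median depended on the floor and was -0.09 with the floor at the 25th percentile, where dim genes enter it.

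Genes that make and decode selenocysteine were followed as a list without Sephs2. Sephs2 is 1 of the 10 genes and was higher (0.05). Of 9 compared, 7 were lower and 2 higher, where 5682 of all 11021 genes compared were lower. All 9 were within 1.5-fold and within their like-level ranges, with a median of -0.14. With probe sets averaged the median was -0.06, and Sepsecs, the selenocysteine synthase, was positive at 0.08. The lowest and the highest of the list, singled out after their values were seen, are paralogues. Secisbp2, which binds the stem-loop, had 201.9 in RPE-exposed and 243.1 in control T cells (-0.27), and its second probe set gave -0.01. Secisbp2l had 215.6 in RPE-exposed and 190.6 in control T cells (0.18), and its second, dim probe set gave 35 in RPE-exposed and 22.5 in control T cells (0.64). Sephs1, the relative of Sephs2 without selenocysteine, gave 363.1 in RPE-exposed and 415.8 in control T cells (-0.20), although its probe sets disagreed in sign. Trnau1ap, a protein of the selenocysteine transfer RNA, gave 316.8 in RPE-exposed and 355.1 in control T cells (-0.16). The seryl-tRNA synthetase gene Sars gave 730.7 in RPE-exposed and 805.4 in control T cells (-0.14, probe sets of both signs). Ncl, nucleolin, had 3650.6 in RPE-exposed and 3625.5 in control T cells (0.01), while its 5 probe sets disagreed in sign, with a mean of 0.16 ± 0.42 (SD). The dimmest of them stood apart, at 37.3 in RPE-exposed and 19.9 in control T cells (0.91). Among genes of selenium uptake, recycling and binding, 3 of 6 on the array were compared: Scly, the lyase that frees selenium from selenocysteine (72.2 in RPE-exposed and 67.9 in control T cells), the Selenop receptor Lrp8 (110.6 in RPE-exposed and 119.8 in control, probe sets of both signs) and Selenbp1 (20.9 in RPE-exposed and 26.9 in control). None of the 3 differed by 1.5-fold.

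**Figure D4:**
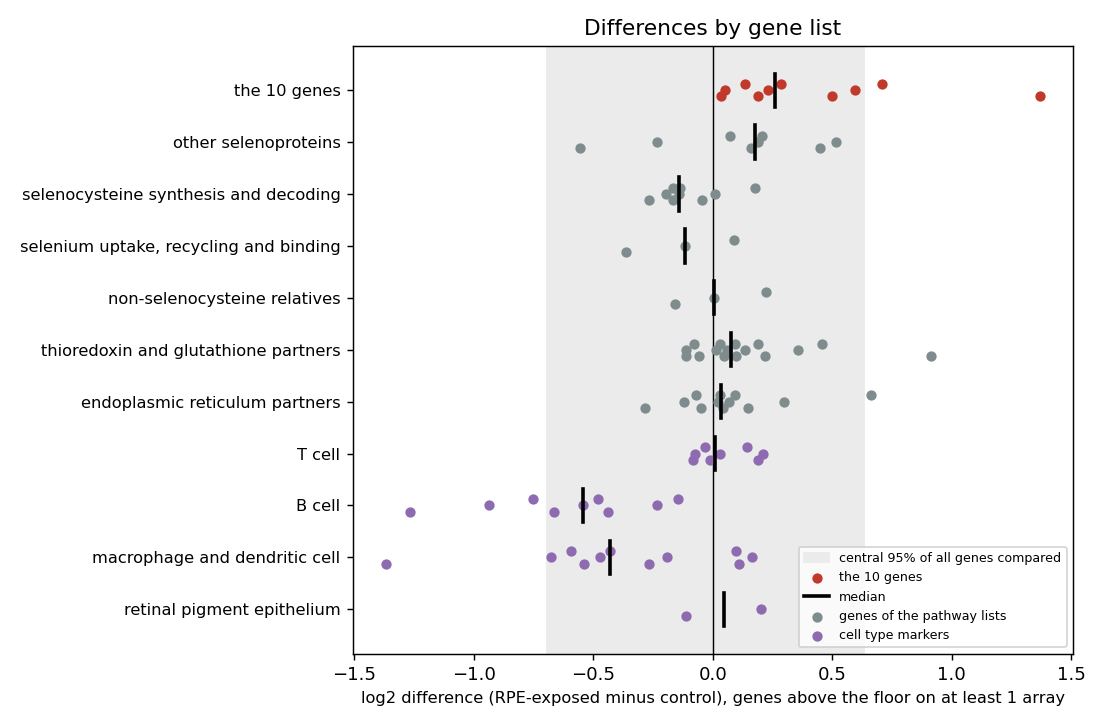
Log2 differences (RPE-exposed minus control, x axis) of the genes that passed the floor on either array, by list (rows), with the list's median as a black bar and the central 95% of all genes compared, -0.69 to 0.63, in grey. The 10 genes all lie right of 0, 7 of 9 genes of selenocysteine synthesis and decoding lie left of it, and all 9 B-cell markers lie left of it.

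Transcripts of proteins that work with these enzymes were followed as well. Of 16 compared genes of the thioredoxin and glutathione systems, which again include Txnrd2, 12 were higher and 4 lower, with a median of 0.08. Among them 1 was at least 1.5-fold higher. That gene was Glrx, the cytosolic glutaredoxin, at 910.4 in RPE-exposed and 484.1 in control T cells, 1.88-fold higher (like-level range -0.44 to 0.51). Its second probe set gave 929 in RPE-exposed and 422.6 in control T cells, 2.20-fold higher. Gsr, which regenerates the glutathione used by Gpx1 and Gpx4, had 332.2 in RPE-exposed and 242.4 in control T cells, 1.37-fold higher and just above its range of -0.47 to 0.43, but 1.08-fold higher on its other probe set. Txn1, the thioredoxin that Txnrd1 reduces, had 4581.3 in RPE-exposed and 4436 in control T cells, 1.03-fold higher. Its second, much dimmer probe set gave 71.4 in RPE-exposed and 50.7 in control T cells, 1.41-fold higher. The peroxiredoxin genes Prdx2 (0.09), Prdx3 (0.13) and Prdx4 (0.01) were within 1.10-fold on their brightest probe sets, and the probe sets of Prdx2, like those of Prdx4, disagreed in sign. Of the relatives that carry cysteine in place of selenocysteine, Msra had 94.1 in RPE-exposed and 80.6 in control T cells, Msrb2 had 37.1 in RPE-exposed and 37 in control, Gpx7 had 22.7 in RPE-exposed and 25.3 in control, and the other 4 were under the floor on both arrays.

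Among the ER partners of Selenos, Selenok and Selenof, 12 were compared, 8 higher and 4 lower, with a median of 0.04. The ATPase gene Vcp, which Selenos binds, had 1622 in RPE-exposed and 1596.4 in control T cells (0.02), but a second probe set gave 78.2 in RPE-exposed and 111 in control T cells (-0.51). The Derlin genes Derl1 (610 in RPE-exposed and 572.5 in control T cells) and Derl2 (543.7 in RPE-exposed and 491.3 in control T cells) were within 1.11-fold on their brightest probe sets. The second probe set of Derl2 gave 110.5 in RPE-exposed and 144.3 in control T cells, 1.31-fold lower. Ufd1, a cofactor of Vcp, gave -0.07, with probe sets of both signs. Itpr2, a calcium channel of the ER, was the only gene of the list past 1.5-fold on its brightest probe set. That set gave 52.8 in RPE-exposed and 33.4 in control T cells, and its like-level range, -0.80 to 0.73, covered it. Its 3 probe sets above the floor disagreed in sign, with a mean of -0.14. The others were lower, at 33.9 in RPE-exposed and 51.5 in control T cells (1.52-fold lower) and 25.4 in RPE-exposed and 35 in control T cells (1.38-fold lower).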

How the data were processed

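Gene expression was measured in 2 samples of mouse T cells, 1 Affymetrix array each. The authors deposited linear signal intensities per probe set; the software behind them is not given in the sources used here. A trimmed mean, leaving out 2% at either end, came to 100 for both arrays, which shows a common scale, and the values were not rescaled. Of 45101 probe sets, 64 were manufacturer's controls, 34945 named 1 gene in the platform annotation, 932 several and 9160 none. The RefSeq table held the gene identifiers of 34741 probe sets with 1 gene, and probe sets with several names or none were left out. The brightest probe set by mean log2 signal stood for its gene, signals under the floor (each array's median) were set to it, and where only 1 array passed the floor the fold is a lower bound. Differences were computed with pandas 2.3.3 and numpy 2.4.6 under Python 3.11.15, figures with matplotlib 3.10.9, and the steps were tested on simulated data. The simulated differences were larger than that of any of the 10 genes, and the noise was smaller than the SD between probe sets. Recovery of differences as small as those of most of the 10 genes was therefore not tested. With 1 array per group no test or p-value was possible, and genes were counted at 1.5-fold and 2-fold. The named genes were all 10 members and all measured genes of the other selenoprotein list. In each other list, except the cell type markers, they were every gene past 1.5-fold or outside its like-level range plus up to 4 of highest mean level. Marker genes were named outside this rule, and not every marker past 1.5-fold was named. Sepsecs, Secisbp2, Secisbp2l, Cd4, Cd8a, Cd8b1, Cd14, Itgax and Cst3 were named after their values were seen. The genes and lists were chosen with earlier results of these data known.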

Additional observations from a re-analysis of the deposited data

How the results depend on the processing

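In all 9 alternatives (25th-percentile, 75th-percentile and no floor, an offset of 16, median centring, quantile normalization, and 3 treatments of multiple probe sets) every value of the 10 genes stayed positive, 87 of 87. The floor settings left the values of the 10 genes unchanged, since all 10 lay above each floor. An offset cannot change a sign, and median centring raised every value. Under those settings the positive signs were therefore fixed in advance. Of the treatments of multiple probe sets, only averaging could have changed a sign. That holds only for Txnrd1, the only gene of the 10 with a negative probe set. Selenow ran from 1.10, when suffixed probe sets (names in x, s or a) were dropped, to 1.38 and stayed past 2-fold. Gpx1 ran from 0.68 to 0.72, and the median of the 10 from 0.20 to 0.27. Dropping the suffixed probe sets left 7 of the 10 genes, all higher. The count past 1.5-fold was 3, but 2 after quantile normalization, which took Selenoh under the line. Selenok moved to 0.27 with averaged probe sets and to 0.05 when the suffixed probe sets were dropped. The share of all genes at least 1.5-fold higher, 3.15%, was 0.965% under the 75th-percentile floor, 10.6% under the 25th, 15.4% under none and 1.93% with all probe sets averaged. That at least 2-fold higher, 0.436%, was in the same order 0.0891%, 4.33%, 9.51% and 0.209%. The median of the other selenoproteins, 0.18, was -0.0911 under the 25th-percentile floor, -0.235 under none, 0.0708 with all probe sets averaged and 0.0685 when suffixed probe sets were dropped. Under the 25th-percentile floor and under none, the median of selenium uptake genes was 0.0276 and that of the non-selenocysteine relatives 0.223, since dim genes then enter. No paired analysis was possible because each group has 1 array.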
